A study of Rattus norvegicus with 15 samples.

Results

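The 6 tumour libraries described here come from Fischer rats of the vehicle group in a study of midkine and mammary carcinogenesis. They were chosen by their label alone (vehicle 2-1, 2-2, 3, 4, 5 and 6) and make up 6 of the 15 libraries of the series. N-nitroso-N-methylurea (NMU), a carcinogen that methylates DNA, was given by intraperitoneal injection at 50 mg/kg and later a second time, in a schedule that the design text spells out only for the midkine rats. The other arm of the study received midkine, a secreted growth factor that binds heparin, at 300 ug/kg, and its libraries are not described. The labels name the treatment of the 6 libraries only as vehicle and give neither its composition nor the animals' age. A piece of each mammary tumour was ground whole, and polyadenylated RNA was read as 150-base pairs. Titles 2-1 and 2-2 share a number that no label explains, and none says that the 6 pieces came from separate rats, so every SD below is the spread between these 6 libraries.

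NMU tumours of the rat mammary gland are a classical carcinogen model, and many of them depend on ovarian hormones and prolactin. The gland they arise in has a bilayered epithelium. Its inner, luminal cells include hormone-sensing cells, which carry the oestrogen and progesterone receptors, and secretory cells, which make milk proteins when prolactin acts through the transcription factor STAT5. Its outer, basal cells are contractile myoepithelial cells on a basement membrane. A ground tumour holds these epithelial cells together with fibroblasts, vessels and immune cells. In such bulk RNA, fewer cells of a type and less RNA per cell cannot be told apart.

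Levels are given as CPM, the reads of a gene scaled to the total of its library, after trimmed-mean (TMM) scaling over the 6 libraries, as mean ± SD with n = 6 unless a range is given. A longer transcript gives more reads, and transcript lengths were not used here. An order of genes by CPM is therefore an order of reads, not of molecules. Between 4925504 reads (vehicle 5) and 7720135 reads (vehicle 2-2) were counted per library, with a median of 7183822. Of 17463 genes in the table, 12213 had a read in all 6 libraries and 2912 had none. Some genes that all cells use also had no or almost no reads, among them MYL6, MYH9, RPS9 and HPRT1 at 0 and RPLP2 at 2 reads in all. These were singled out after their counts were seen, and a low count in this table is therefore not evidence that a gene is silent.

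Reads were spread widely over genes. The 10 genes with most reads in each library held 4.72% ± 0.548 of its reads, the top 100 held 18.9% ± 1.29 and the top 1000 held 52.5% ± 1.91. Protein-coding genes held 99.3% ± 0.0907. The 104 long noncoding genes in the table held 0.118% ± 0.0135, led by GAS5 at 164 ± 28.8 CPM, which hosts small nucleolar RNAs, and OIP5-AS1 at 115 ± 11.8 CPM. H19, an imprinted noncoding RNA, stood between 26.5 and 100 CPM. These 3 genes were chosen after their values were seen. A mean of at least 10 CPM was reached by 9134 genes, of at least 100 CPM by 2368 and of at least 1000 CPM by 117.

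Translation took the largest share of any class of genes examined. Cytosolic ribosomal proteins, the protein part of the ribosome, held 8.18% ± 0.556 of reads, from 7.37% in vehicle 2-1 to 8.88% in vehicle 3. This class was among the most even: the median SD of log2 CPM of its members was 0.17, against 0.27 for all 9134 genes with a mean of at least 10 CPM. Although none of its 77 members at that level was in the most variable 10% of genes, 56 of the 77 were lowest in vehicle 2-1. RPL22L1, a paralogue of RPL22, varied most within the class, from 59.5 CPM in vehicle 2-1 to 134 CPM in vehicle 5 (median 73.2 CPM). Translation factors held 2.54% ± 0.262, led by EEF1A1 at 8344 ± 1389 CPM and EEF2 at 4851 ± 784 CPM, which deliver aminoacyl-tRNA to the ribosome and move it along the message.

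The other housekeeping classes were smaller. Counts of members by library are to be read against all 9134 genes, of which 18.9%, 7.84%, 25.4%, 11%, 17.6% and 19.3% were highest in vehicles 2-1, 2-2, 3, 4, 5 and 6. The shares lowest in these libraries were 16.4%, 9.86%, 24.4%, 12.7%, 17.8% and 18.8%. Cytoskeletal and actin-binding genes held 1.95% ± 0.366, chaperones 1.42% ± 0.192, nuclear genes of oxidative phosphorylation 1.47% ± 0.185 and proteasome subunits 0.8003% ± 0.0851. The table holds no mitochondrially encoded genes, so that class has no value. Of the 16 chaperones, 13 were highest in vehicle 3, where HSP90AB1, a cytosolic HSP90 isoform, stood at 4417 CPM against a 6-library median of 3546 CPM. Histones held 0.287% ± 0.0528, and 8 of 9 histone genes with at least 10 CPM were also highest in vehicle 3. Genes of rat MHC (RT1), which present peptides to T cells, held 0.278% ± 0.0371, with RT1-A1 at 513 ± 118 CPM.

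Collagen and milk protein genes took unequal shares of the reads of the 6 libraries. Collagens, the fibrous and basement-membrane proteins of the matrix, held from 0.729% in vehicle 2-1 to 1.86% in vehicle 4, and milk proteins from 0.0667% in vehicle 3 to 1.01% in vehicle 6. Keratins, the intermediate filaments of epithelium, held 0.699% ± 0.165, a narrower range of 0.489% in vehicle 6 to 0.977% in vehicle 3. These shares use all counted reads as deposited and need no scaling.

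**Figure D1:**
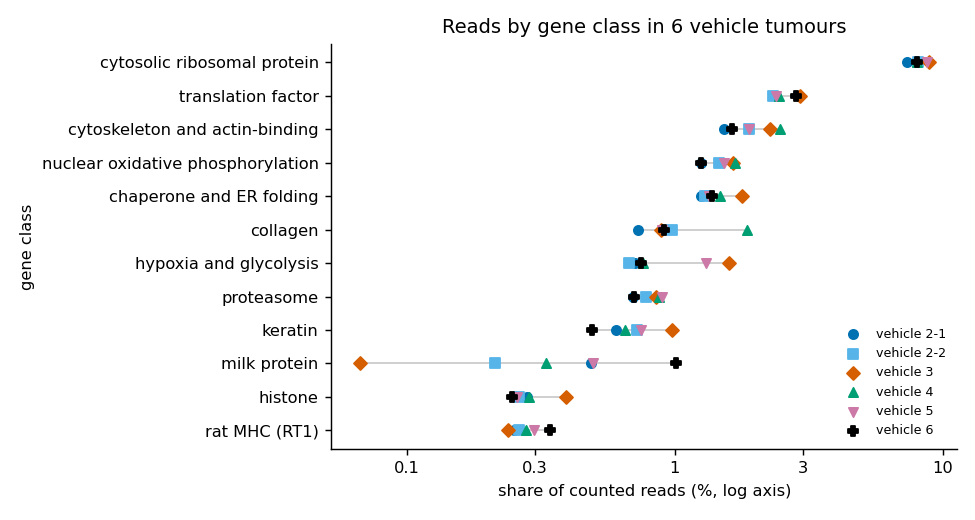
Share of counted reads (percent, log axis) held by each gene class in each vehicle library, 1 point per library, with a grey line from the lowest to the highest. Ribosomal protein genes lie close together near their mean of 8.18%, while collagens spread from 0.729% to 1.86%.

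The 20 genes with most reads joined translation genes with products of the matrix and of lipid transport. Of these 20, 8 encode ribosomal proteins, and 11 were in the top 20 of every library. APOE, the apolipoprotein E of lipid transport, was in 2nd place with 4696, 6327, 4325, 4369, 10828 and 11368 CPM in vehicles 2-1, 2-2, 3, 4, 5 and 6. It stood apart by library, since vehicles 5 and 6 lay well above the other 4. ACTA2, the smooth-muscle actin of myoepithelial cells and contractile stroma, stood at 2249.6, 3806, 4912, 7632, 2408 and 3767 CPM in the same order. FTH1, the ferritin heavy chain that stores iron, stood at 4057 ± 1442 CPM.

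SPARC, a matrix-binding glycoprotein, had 2751 ± 1009 CPM and COL4A1, a chain of basement-membrane collagen, 2727 ± 721 CPM. B2M, the light chain of MHC class I, was steadier at 2599.9 ± 342 CPM. Among the 100 genes with most reads on average, 57 were in the top 100 of all 6 libraries. Ribosomal proteins made up 34 of those 100, the cytoskeletal list 9, translation factors 7 and chaperones 6, while 23 belonged to none of the lists used.

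**Figure D2:**
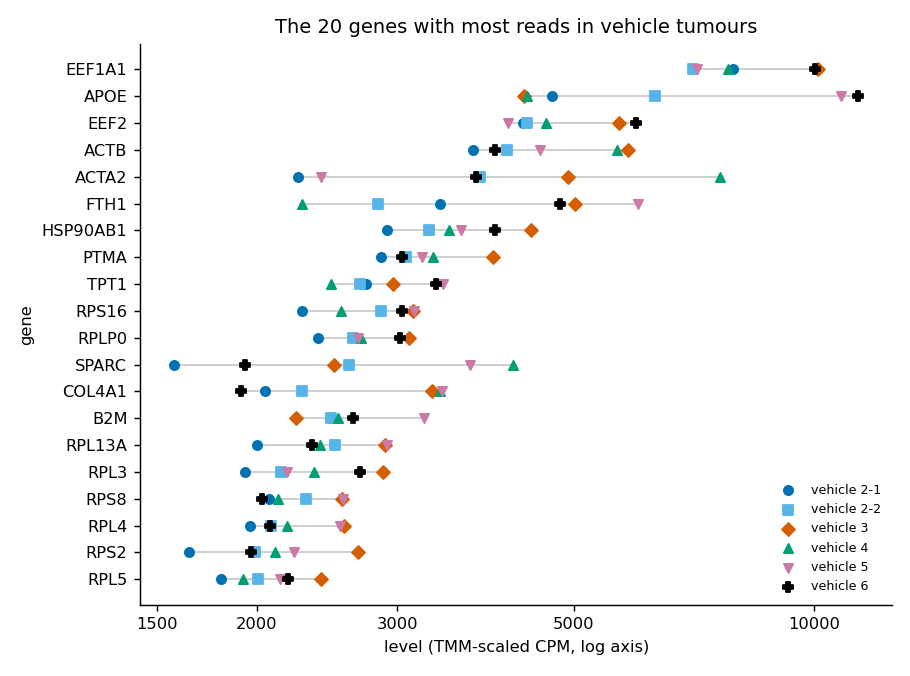
Levels (TMM-scaled CPM, log axis) of the 20 genes with most reads, 1 point per vehicle library and a grey line over their range. EEF1A1 leads at 8344 CPM on average, and APOE and ACTA2 have the widest spread, with APOE reaching 11368 CPM in vehicle 6.

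The label of a mammary tumour was checked against epithelial and mammary markers, and these were abundant in every library. For each list of markers a score was computed as the mean log2 CPM of its measured members. Pan-epithelial genes had the highest score of the 17 cell type lists at 8.66 ± 0.21, from 8.39 in vehicle 4 to 8.94 in vehicle 3, and all 14 measured members had a mean of at least 10 CPM. The score orders lists by reads per gene, not by numbers of cells. KRT19 stood at 1511 ± 481 CPM and KRT8, the simple-epithelial keratin of luminal cells, at 1228 ± 269 CPM. EPCAM, an epithelial adhesion molecule, had 974 ± 137 CPM, and SPINT2, an epithelial protease inhibitor, 1142 ± 97.5 CPM.

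Genes of hormone-sensing luminal cells were present and uneven, with a score of 5.59 ± 0.46, from 5.02 in vehicle 6 to 6.14 in vehicle 3. Of the 10 measured members averaged into the score, 8 had a mean of at least 10 CPM. TNFSF11, singled out after its count was seen, had 0 reads in all 6 libraries. Of the 8 members with at least 10 CPM, 5 were in the most variable 10%, 5 were highest in vehicle 3 and 5 were lowest in vehicle 6. ESR1, the oestrogen receptor alpha, stood at 15.6, 10.1, 10.1, 6.36, 5.89 and 8.62 CPM in vehicles 2-1, 2-2, 3, 4, 5 and 6. These values were below 10 CPM in 3 of 6 libraries, while CITED1, AREG and PGR, genes known to respond to oestrogen, were well covered. PGR, the progesterone receptor, stood at 34.3, 23.7, 66.5, 32.2, 28.2 and 22.9 CPM, with vehicle 3 above the other 5, and without vehicle 3 its SD of log2 CPM went from 0.56 to 0.26.

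AREG, an EGF receptor ligand of ductal growth, stood at 377 ± 147 CPM, and GATA3, the luminal transcription factor, at 205 ± 71.3 CPM. CITED1, a transcriptional co-activator, was held at 948, 972, 1084, 771, 994 and 267 CPM, so vehicle 6 lay far under the other 5, and without it the SD of log2 CPM dropped from 0.76 to 0.18. PROM1, the membrane protein CD133, was low in another library: vehicle 4 had 21.1 CPM, and the next lowest library had 114 CPM. Its SD of log2 CPM was 1.05, and 0.15 without vehicle 4. PRLR, the prolactin receptor, was added after its values were seen and ranged from 12.1 CPM in vehicle 6 to 65.1 CPM in vehicle 2-1 (median 42.1 CPM).

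Milk protein genes, the product of secretory luminal cells, were expressed in all 6 libraries and had the widest range of the epithelial lists. Their score was 5.25 ± 1.19, from 3.84 in vehicle 3 to 7.05 in vehicle 6, and 7 of 7 members with at least 10 CPM were in the most variable 10% of genes. CSN3, the kappa-casein that keeps casein micelles in suspension, stood at 2432, 1145, 164, 1523, 2617 and 3951 CPM in vehicles 2-1, 2-2, 3, 4, 5 and 6. CSN1S1, alpha-S1 casein, stood at 1185, 383, 166, 755, 1442 and 3568 CPM. LALBA, the alpha-lactalbumin subunit of lactose synthase, stood at 525, 319, 49.2, 738, 708 and 1676 CPM. In all 3 genes vehicle 3 was lowest and vehicle 6 highest, and over the list 6 of 7 were highest in vehicle 6 and 5 were lowest in vehicle 3. Leaving out vehicle 3 moved the SD of log2 CPM of CSN3 from 1.63 to 0.70.

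Not all milk genes kept this pattern. CSN2, beta-casein, stood at 5.21, 3.41, 3.42, 0.947, 56.6 and 75.9 CPM, so that vehicles 5 and 6 were above 50 CPM and the other 4 below 6 CPM. GLYCAM1, a mucin-like glycoprotein of milk and of lymph-node vessels, was highest in vehicle 3: it stood at 3.61, 3.53, 258, 2.57, 62.1 and 27.1 CPM. The most CSN2 and GLYCAM1 of the series was in the library midkine 5, at 7352 and 2168 CPM without TMM scaling, and its part in the low values of both genes was not tested. The place of GLYCAM1 as the 2nd most variable gene rests on its 3 values below 4 CPM. XDH, the xanthine dehydrogenase of the milk fat globule membrane, was again lowest in vehicle 3 and highest in vehicle 6, at 330.0, 168, 35.98, 199, 194 and 649 CPM. WAP, whey acidic protein, had 25 reads in all 6 libraries together and was named after its count was seen.

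The 250 bases before the annotated start of the 3 milk genes with most reads and of CSN2 are shown because these genes shared or broke that pattern and STAT5 sites near the start are textbook elements of casein genes. They are from RefSeq's GRCr8 assembly, not the rn6 build the submitters' notes name, and are printed 5′ to 3′ on the gene's own strand. Capitals mark each match to TTCNNNGAA, the STAT-type motif, which reads the same on both strands. The windows lie at chr14:20439831-20440080, minus strand, for Csn3, chr14:20638850-20639099, minus strand, for Csn1s1, chr7:131507073-131507322, minus strand, for Lalba and chr14:20601574-20601823, plus strand, for Csn2.
Csn3: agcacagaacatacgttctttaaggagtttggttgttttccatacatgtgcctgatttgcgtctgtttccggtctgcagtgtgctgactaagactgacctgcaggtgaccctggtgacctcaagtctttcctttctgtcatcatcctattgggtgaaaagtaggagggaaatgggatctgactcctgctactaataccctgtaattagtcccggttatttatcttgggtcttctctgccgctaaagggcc
Csn1s1: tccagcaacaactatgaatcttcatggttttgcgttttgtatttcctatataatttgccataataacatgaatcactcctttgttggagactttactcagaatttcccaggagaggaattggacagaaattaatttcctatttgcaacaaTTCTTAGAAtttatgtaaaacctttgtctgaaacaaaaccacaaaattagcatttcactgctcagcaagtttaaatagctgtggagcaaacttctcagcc
Lalba: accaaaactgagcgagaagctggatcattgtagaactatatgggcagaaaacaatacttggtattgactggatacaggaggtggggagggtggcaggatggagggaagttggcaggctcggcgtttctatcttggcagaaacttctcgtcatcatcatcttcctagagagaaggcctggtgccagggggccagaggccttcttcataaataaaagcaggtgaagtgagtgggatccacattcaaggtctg
Csn2: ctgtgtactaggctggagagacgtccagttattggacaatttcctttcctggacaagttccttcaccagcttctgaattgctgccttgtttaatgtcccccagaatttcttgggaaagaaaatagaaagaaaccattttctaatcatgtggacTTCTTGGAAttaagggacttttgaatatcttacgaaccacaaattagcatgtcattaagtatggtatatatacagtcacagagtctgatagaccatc
Csn1s1 and Csn2 each hold 1 match, whose first base is at -100 and -97 from the start, and the Csn3 and Lalba windows hold none. Of 33469 rat promoter windows of this length, 2566 (7.67%) hold a match. CSN1S1, CSN3 and LALBA shared their lowest and highest libraries, and of these 3 genes 1 has the match and 2 do not. A match is a run of letters and not a measured binding site.

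The other secretory-progenitor genes were low in the same library as CSN3 and CSN1S1. Their score was 6.06 ± 0.76, from 4.75 in vehicle 3 to 6.84 in vehicle 6, and 6 of 7 members with at least 10 CPM were lowest in vehicle 3. The member CD14 is also counted in the pan-leukocyte and macrophage list, so the counts of the 2 lists share that gene. ELF5, the transcription factor of the alveolar lineage, stood at 140.1, 69.7, 7.29, 97.5, 89.9 and 205 CPM in vehicles 2-1, 2-2, 3, 4, 5 and 6. Vehicle 3 lay far below the other 5, and without it the SD of log2 CPM of ELF5 dropped from 1.68 to 0.61. MFGE8, a milk fat globule protein that myoepithelial and other cells also make, was less uneven at 1714 ± 583 CPM. KIT, the stem cell factor receptor of luminal progenitors and also of mast cells, stood at 121 ± 94.9 CPM.

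Basal and myoepithelial genes were the second-highest cell type list, with a score of 8.33 ± 0.36, from 7.74 in vehicle 2-1 to 8.79 in vehicle 3. KRT5, the basal keratin, stood at 1352, 1616, 1959.5, 1289.7, 2144 and 884 CPM in vehicles 2-1, 2-2, 3, 4, 5 and 6, and its partner KRT14 at 169, 329, 739.7, 374, 577 and 547 CPM. Both keratins were therefore well covered in every library. TP63, the p63 factor of basal cells, and SOX10 were added after their values were seen: TP63 ranged from 134 CPM in vehicle 4 to 336 CPM in vehicle 6 (median 151 CPM) and SOX10 from 175 CPM in vehicle 3 to 429 CPM in vehicle 2-1 (median 371 CPM).

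Contractile genes within the list were uneven to different degrees. TAGLN, the actin-binding protein transgelin, stood at 1387 ± 394 CPM, and MYLK, the myosin light chain kinase, at 800.0 ± 353 CPM. ACTG2, the gamma smooth-muscle actin, stood at 60.3, 408, 1319, 1161, 124 and 17.7 CPM in the 6 libraries. Vehicles 3 and 4 lay above 1000 CPM and vehicle 6 below 20 CPM. Pericyte genes, which share the contractile character, scored 5.18 ± 0.30, from 4.83 in vehicle 6 to 5.67 in vehicle 5, with MCAM at 296 ± 148 CPM, and 2 of the 6 were in the most variable 10%.

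**Figure D3:**
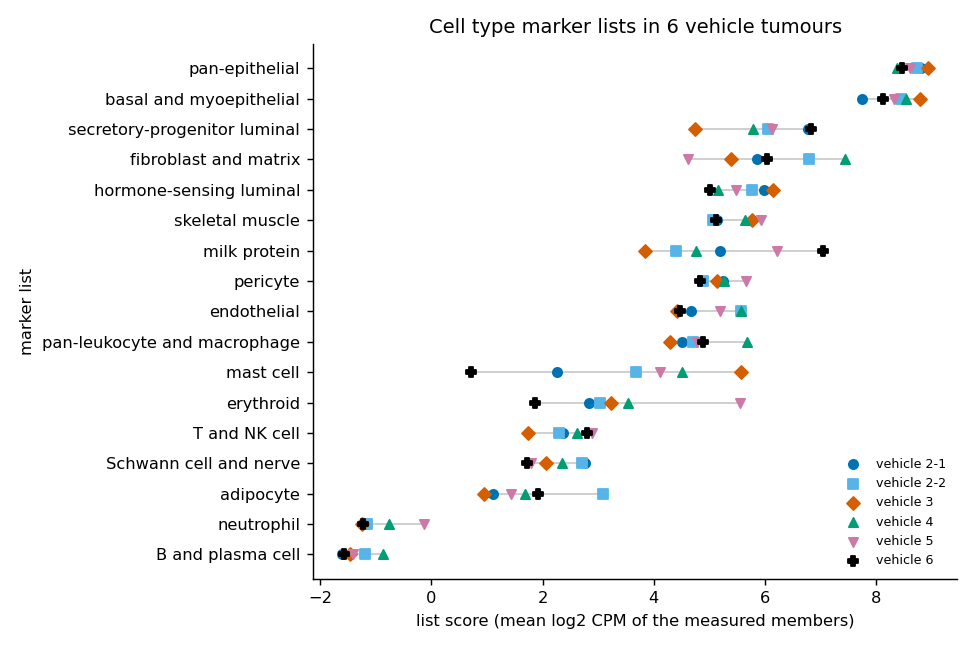
Score of each cell type list (mean log2 CPM of measured members, prior count 2) in each vehicle library, 1 point per library and a grey line over the range. Pan-epithelial and basal lists lie at the top near 8.66 and 8.33, B and plasma cell genes at the bottom near -1.36, and mast cell genes have the longest line, from 0.72 in vehicle 6 to 5.57 in vehicle 3.

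Stromal genes separated the libraries by a different order from the milk genes. The fibroblast and matrix list scored 6.02 ± 1.000, from 4.61 in vehicle 5 to 7.44 in vehicle 4, and 12 of its 13 members with at least 10 CPM (of 15 measured) were in the most variable 10% of genes. Of the 13, 11 were highest in vehicle 4 and 11 lowest in vehicle 5. COL1A1, the main chain of fibrillar collagen I, stood at 807, 1638, 605, 5625, 255 and 1127 CPM in vehicles 2-1, 2-2, 3, 4, 5 and 6. POSTN, periostin of activated fibroblasts, stood at 289, 1096, 265, 2285, 61.7 and 482 CPM. PDGFRA, the platelet-derived growth factor receptor of fibroblasts, stood at 13.5, 72.9, 5.65, 77.6, 3.16 and 34.3 CPM. In each of these 3 genes vehicles 2-2 and 4 were the highest and vehicles 3 and 5 the lowest. The most COL1A1 of the series was in the library midkine 5, at 72947 CPM without TMM scaling, and its part in the low value of vehicle 5 was not tested.

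COL3A1, which forms mixed fibrils with collagen I, ranged from 131 CPM in vehicle 5 to 2876 CPM in vehicle 4 (median 685 CPM). ELN, elastin, belongs to no list and shared the order with 232, 723, 65.1, 1133, 23.1 and 447 CPM. Basement-membrane COL4A1 did not: it ranged from 1910.4 CPM in vehicle 6 to 3411 CPM in vehicle 5 (median 2799 CPM). A COL1A2 count of 3 reads in all, noticed after the counts were seen, stood against this abundance of its partner chain and was left as the table gives it.

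Vessel genes were moderate and less uneven than the fibroblast and matrix list, but more uneven than most genes. Of the 12 endothelial members with at least 10 CPM, 4 were in the most variable 10%. Their median SD of log2 CPM was 0.66, against 0.27 for all 9134 genes. The endothelial score was 4.98 ± 0.53, from 4.41 in vehicle 3 to 5.58 in vehicle 2-2. PECAM1, the CD31 adhesion molecule, stood at 39.2, 86.3, 40.6, 93.03, 73.7 and 36.3 CPM in the 6 libraries, and FLT1, a VEGF receptor, at 146 ± 68.95 CPM. VWF, the von Willebrand factor, had 90.3 ± 28.8 CPM. Nerve and Schwann cell genes scored 2.24 ± 0.45, with most of their reads in PMP22 at 35.3 ± 12.6 CPM, which other cells also express.

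Adipocyte genes were low, with a score of 1.70 ± 0.77, and highest in vehicle 2-2 at 3.09. ADIPOQ, the adipocyte hormone adiponectin, stood at 0.935, 6.94, 0.446, 1.35, 0.631 and 2.22 CPM in vehicles 2-1, 2-2, 3, 4, 5 and 6. FABP4, a fatty acid carrier of fat and capillary cells, ranged from 4.81 CPM in vehicle 2-1 to 43.4 CPM in vehicle 2-2 (median 11.6 CPM). Both genes were highest in vehicle 2-2. LIPE, another gene of the list, was not low in any library: its mean was 31.7 CPM and its lowest value 26.1 CPM without TMM scaling. Of the 3 members with at least 10 CPM, 2 were highest in vehicle 2-2 and 1 in vehicle 2-1.

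Skeletal muscle genes were present in every vehicle library at a small share of their level in 1 other library of the series. MYH4, a fast muscle myosin, ranged from 95.7 CPM in vehicle 6 to 173 CPM in vehicle 5 (median 123 CPM), and ACTA1, skeletal actin, from 59.7 CPM in vehicle 6 to 381 CPM in vehicle 3 (median 116 CPM). The library midkine 1 holds most of the muscle reads of the series. Without TMM scaling, the 12 list genes other than TPM2 stood in the vehicle libraries at 0.228% (MYH4) to 0.487% (ACTA1) of their level there, with a median of 0.285%. TPM2, a tropomyosin that smooth muscle and myoepithelium also make, stood at 8.85%. Among named genes outside the muscle list, 6 had a lowest vehicle value of at most 2 times the MYH4 share of their highest level in another library: CSN2, GLYCAM1, COL1A1, COL3A1, CRABP1 and LEFTY1. Whether muscle fibres lay in the vehicle pieces was not tested, nor was the part of other libraries in these 6 low values.

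Macrophage genes had the highest score of the immune lists. The pan-leukocyte and macrophage list scored 4.81 ± 0.48, from 4.29 in vehicle 3 to 5.69 in vehicle 4: 8 of its 12 members at 10 CPM or more were highest in vehicle 4 and 10 lowest in vehicle 3. PTPRC, the pan-leukocyte CD45, stood at 21.9, 23.1, 16.2, 33.5, 37.7 and 34.2 CPM in vehicles 2-1, 2-2, 3, 4, 5 and 6. LYZ2, macrophage lysozyme, ranged from 89.5 CPM in vehicle 3 to 319.8 CPM in vehicle 4 (median 160.0 CPM), and C1QA, a complement subunit made by tissue macrophages, from 67.5 CPM in vehicle 3 to 175 CPM in vehicle 4 (median 105 CPM). MRC1, the mannose receptor of tissue macrophages, stood at 67.6 CPM in vehicle 4, and its SD of log2 CPM went from 1.04 to 0.46 without that library.

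T cell genes were present in all 6 libraries, most of them at low levels. The T and NK list scored 2.45 ± 0.43, and 3 of its 13 measured members had a mean of at least 10 CPM. CD4 stood at 23.1 ± 7.64 CPM and FOXP3, the factor of regulatory T cells, at 22.03 ± 3.75 CPM. The T cell receptor complex genes CD3E, CD3G and CD3D were lower, with means of 7.59, 6.84 and 3.17 CPM without TMM scaling. These 3 were added after their values were seen. CD8A, the cytotoxic T cell co-receptor, was less even at 6.28, 4.54, 1.78, 5.41, 23.8 and 16.4 CPM, with vehicle 5 highest. Neutrophil and B cell genes were at the limit of detection: none of the 7 measured members of either list reached a mean of 10 CPM, and 6 of the 7 B and plasma cell genes had at most 10 reads over the 6 libraries together.

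Mast cell genes had the widest range of any cell type list. The score was 3.48 ± 1.73, from 0.72 in vehicle 6 to 5.57 in vehicle 3. All 6 members with at least 10 CPM were in the most variable 10%, 5 of them highest in vehicle 3 and 6 lowest in vehicle 6. TPSB2, a mast cell tryptase, stood at 18.04, 52.2, 237, 118, 87.3 and 4.45 CPM in vehicles 2-1, 2-2, 3, 4, 5 and 6, and CPA3, the mast cell carboxypeptidase, at 10.6, 30.3, 152, 98.6, 31.99 and 1.67 CPM. MCPT2, a mast cell protease of mucosal type, stood at 2.54, 11.99, 123, 10.95, 13.5 and 0.695 CPM. In each of the 3 genes vehicle 3 was highest and vehicle 6 lowest, the reverse of CSN3 and CSN1S1. Rat mast cell proteases form a family of close copies, so reads may be split between them.

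Globin genes stood out in 1 library. The erythroid list was highest in vehicle 5 for 3 of 3 members with at least 10 CPM, with a score from 1.86 in vehicle 6 to 5.55 in vehicle 5. HBA-A1, an alpha globin, stood at 64.1, 81.3, 87.7, 116, 708 and 25.7 CPM in the 6 libraries. Vehicle 5 was also the library with fewest reads, and the part of globin RNA in its other values was not tested.

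**Figure D4:**
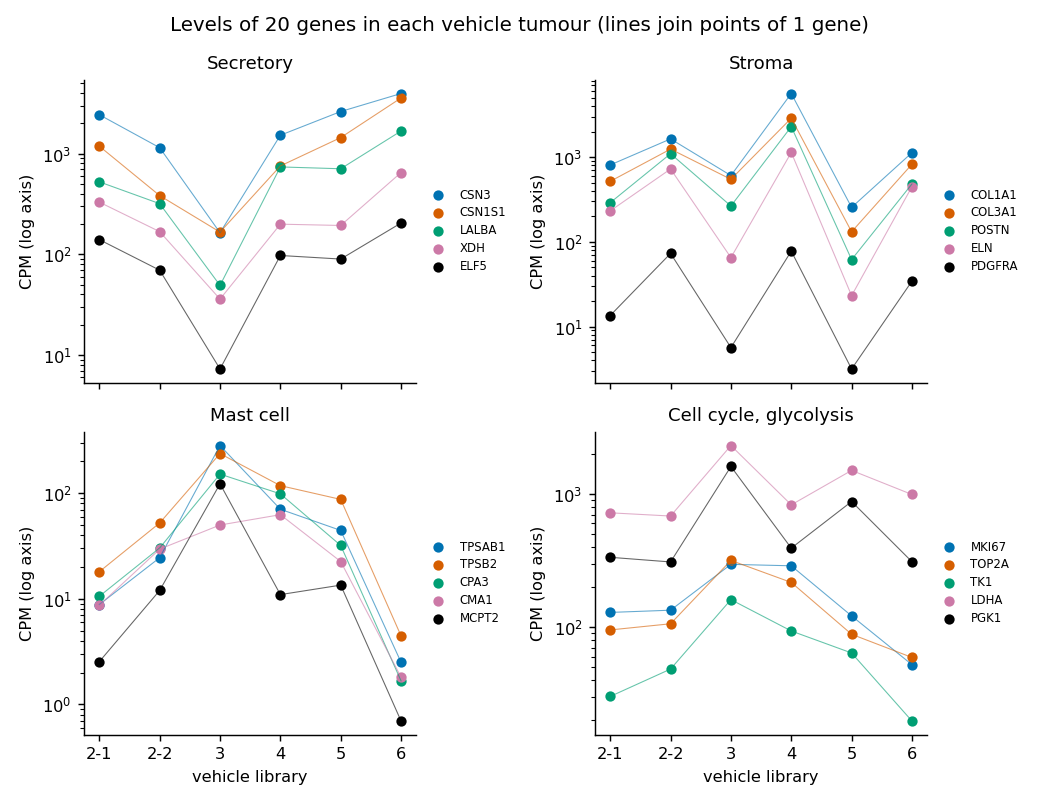
Levels (TMM-scaled CPM, log axis) of 20 genes in 4 panels (secretory, stroma, mast cell, and cell cycle with glycolysis) in each vehicle library; the lines only join the points of 1 gene, since the libraries have no order. Secretory genes are lowest in vehicle 3, stromal genes highest in vehicle 4, mast cell genes lowest in vehicle 6, and LDHA and PGK1 highest in vehicle 3.

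Proliferation genes were expressed in all libraries, highest in vehicle 3. The cell cycle score was 5.57 ± 0.74, from 4.72 in vehicle 6 to 6.70 in vehicle 3, with 19 of 20 genes highest in vehicle 3, 15 lowest in vehicle 6 and 12 in the most variable 10%. MKI67, the Ki-67 antigen of dividing cells, stood at 129, 134, 296, 289, 121 and 52.3 CPM in vehicles 2-1, 2-2, 3, 4, 5 and 6. TOP2A, the topoisomerase of chromosome segregation, stood at 95.3, 106, 317, 217, 88.4 and 59.2 CPM. PCNA, the sliding clamp of DNA replication, ranged from 114 CPM in vehicle 6 to 248 CPM in vehicle 3 (median 151 CPM). Vehicles 3 and 4 were above the other 4 libraries for MKI67 and TOP2A.

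Glycolysis and hypoxia genes were also highest in vehicle 3, followed by vehicle 5. Their score was 7.34 ± 0.68, from 6.79 in vehicle 2-2 to 8.36 in vehicle 3, and 15 of 20 members were highest in vehicle 3. LDHA, lactate dehydrogenase A, stood at 721, 682, 2307, 828, 1501 and 989.9 CPM in the 6 libraries, and PGK1, phosphoglycerate kinase, at 334, 309, 1606, 392, 877 and 309.7 CPM. CA9, the carbonic anhydrase induced by low oxygen, ranged from 2.36 CPM in vehicle 6 to 80.8 CPM in vehicle 5 (median 15.1 CPM). GAPDH, a glycolytic enzyme that is widely used as a reference gene, stood at 1112, 1177, 2728, 1536, 2238 and 1027 CPM. Vehicles 3 and 5 were the 2 highest libraries for LDHA, PGK1 and GAPDH.

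Fatty acid synthesis genes were highest in vehicle 3 or 6. Their score was 6.52 ± 0.33, from 6.21 in vehicle 4 to 6.98 in vehicle 3, with 6.90 in vehicle 6. Of the 12 members with at least 10 CPM, 6 were highest in vehicle 3 and 5 in vehicle 6, while 2 were lowest in vehicle 6. FASN, fatty acid synthase, stood at 604, 448, 764, 523, 581 and 1993 CPM in vehicles 2-1, 2-2, 3, 4, 5 and 6, so that 5 libraries lay within 448 to 764 CPM, and its SD of log2 CPM dropped from 0.77 to 0.28 without vehicle 6. THRSP, a regulator of lipogenesis in mammary gland and liver, was also highest in vehicle 6, at 994 CPM against a median of 135 CPM. SREBF1, the transcription factor of lipogenic genes, was not uneven in this way, at 287 ± 51.4 CPM. Of the 7 milk protein genes at that level, 6 were highest in the same library.

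The interferon and early-response lists were about as uneven in score as the fatty acid list. In the most variable 10% were 3 of 17 interferon and 4 of 10 early-response genes with at least 10 CPM. The interferon list scored 4.999 ± 0.37, with 10 of 17 genes at 10 CPM or more highest in vehicle 4 and 10 lowest in vehicle 6. The immediate early list, genes that stress and handling can induce within minutes, scored 5.47 ± 0.36, with JUN at 311 ± 161 CPM and EGR1 from 40.4 CPM in vehicle 2-2 to 355 CPM in vehicle 6 (median 74.3 CPM).

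Growth factor receptors and RAS genes were among the steadier programmes, with a score of 5.23 ± 0.20. FGFR2, a fibroblast growth factor receptor of mammary epithelium, stood at 263, 256, 231, 259, 199.7 and 264 CPM in vehicles 2-1, 2-2, 3, 4, 5 and 6, and FGFR1 at 218 ± 21.8 CPM. Their values lay within narrow ranges, whereas FGFR3 was less even, from 102 CPM in vehicle 4 to 411 CPM in vehicle 2-1 (median 203 CPM). ERBB2, the HER2 receptor, stood at 118 ± 28.2 CPM and EGFR, the EGF receptor, at 20.8 ± 7.24 CPM. HRAS, the RAS gene that is often mutated in NMU tumours, stood at 106, 125, 137, 135, 173 and 95.8 CPM. A count table holds no bases, so whether any of these transcripts carries a mutation cannot be read from it. MDK, the tumours' own midkine transcript, was expressed without midkine dosing at 58.5, 268, 257, 348, 327 and 165 CPM. Its lowest library was vehicle 2-1, without which its SD of log2 CPM went from 0.96 to 0.42.

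Across the 9134 genes with a mean of at least 10 CPM, the median SD of log2 CPM between libraries was 0.27, with 10% of genes under 0.14 and 10% over 0.69. Counting reads alone would give a median SD of 0.08. An SD above 1 was found for 346 genes (3.79%) and above 2 for 27. The 100 most variable genes reached their highest value most often in vehicle 6 (31 genes) and vehicle 4 (23 genes), and their lowest in vehicle 3 (36 genes) and vehicle 6 (30 genes). Over all 9134 genes, vehicle 6 was highest for 19.3% and vehicle 4 for 11%, and vehicle 3 was lowest for 24.4% and vehicle 6 for 18.8%. The lists of markers, gene classes and programmes held 21 of the 100. Milk and mast cell genes made up 5 each, fibroblast genes 3, erythroid and collagen genes 2 each and 4 other lists 1 each. Among the 9134 genes, the milk, mast cell, fibroblast, erythroid and collagen lists have 7, 6, 13, 3 and 22 members.

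The most variable gene was NRGN, neurogranin, a calmodulin-binding protein best known from neurons, at 252, 172, 5.501, 5.14, 8.42 and 2.09 CPM in vehicles 2-1, 2-2, 3, 4, 5 and 6. Vehicles 2-1 and 2-2 lay above 170 CPM and the other 4 below 9 CPM (SD of log2 CPM 2.84). Some of the other highly variable genes shared that pattern in part: ABCA13, a large lipid transporter, stood at 74.8, 58.05, 43.6, 4.19, 6.73 and 0.556 CPM, and ABCC8, the sulphonylurea receptor, at 147, 121, 24.7, 26.4, 46.3 and 2.22 CPM. In both, vehicles 2-1 and 2-2 held the 2 highest values and vehicle 6 the lowest.

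Other variable genes followed vehicles 3 and 4 or 6. LEF1, a transcription factor of WNT signalling, stood at 56.5, 54.1, 1.64, 4.06, 66.3 and 85.4 CPM, so vehicles 3 and 4 lay below 5 CPM and the other 4 above 50 CPM. DLK1, an imprinted relative of Notch ligands, was highest in those same 2 libraries, with 3.74, 8.203, 84.9, 73.7, 18.3 and 1.11 CPM. SOSTDC1, a secreted BMP and WNT antagonist, ranged from 0.556 CPM in vehicle 6 to 78.8 CPM in vehicle 3 (median 7.55 CPM). LEFTY1, an antagonist of Nodal, was near 0 in vehicle 6 at 0.278 CPM, without which its SD of log2 CPM went from 2.36 to 1.15.

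KRT20, a keratin of gut and urothelial lining, was likewise low in vehicle 6 alone, at 1.11 CPM against 26.3 to 88.2 CPM, and its SD went from 2.21 to 0.63 without that library. RPRM, reprimo, a p53-induced cell cycle inhibitor, behaved alike at 24.1, 13.9, 18.3, 69.5, 11.8 and 0.417 CPM, with an SD of 2.22, or 1.00 without vehicle 6. CRABP1, a carrier of retinoic acid, was high in vehicles 2-2 and 4, the same libraries as the fibroblast genes, at 32.3, 244, 8.62, 197, 6.103 and 36.7 CPM. GLDN, gliomedin, had 14.4, 18.7, 0.743, 33.8, 0.842 and 11.96 CPM. CLIC6, a chloride channel family member, was highest in vehicle 6 at 100.1 CPM, as CSN3 and CSN1S1 were.

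**Figure D5:**
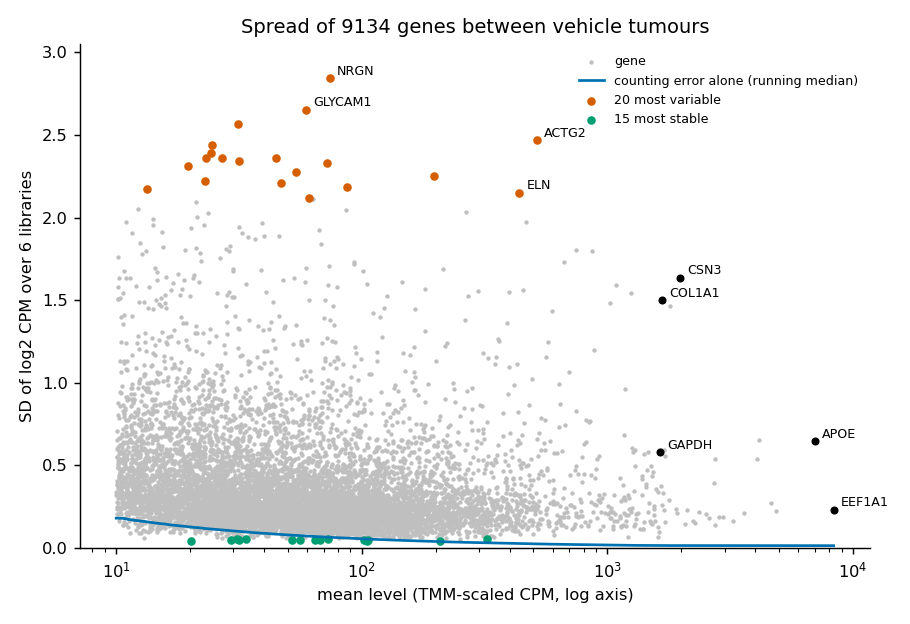
SD of log2 CPM over the 6 vehicle libraries (y axis, log2 units) against mean level (x axis, TMM-scaled CPM, log axis) for genes with a mean of at least 10 CPM, 1 point per gene, with named genes labelled. Most genes lie near the median SD of 0.27, NRGN is the highest point at 2.84, and GAPDH at 0.58 lies above EEF1A1 at 0.23.

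Most of the steadiest genes had a measured spread no larger than reads alone give. Of the 15 genes with the lowest SD, 13 were at or below their own counting SD, as were 119 (1.30%) of the 9134. The 15 were picked as the lowest of these same SDs, so the 13 cannot show that these genes lack further spread. MARK3, a microtubule-affinity kinase, stood at 105 ± 3.14 CPM with an SD of log2 CPM of 0.043, against 0.054 from counting. HDAC2, a histone deacetylase, stood at 208, 198, 209, 217, 209 and 214 CPM in the 6 libraries, with an SD of 0.046 against 0.038. BAG6, a chaperone of tail-anchored proteins, stood at 324 ± 11.9 CPM, with 0.053 against 0.031. The other 12 were ATMIN, CDC123, MPDU1, GTF2H4, AKIRIN1, CDIPT, BLOC1S5, UTP14A, CNPY3, VEZT, DEPDC5 and SAP30BP. Which genes come last in this order depends on single libraries: of the 15, between 2 and 8 remained when 1 library was left out.

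Genes commonly used as references spread over most of the range of stability. Of the 14 with at least 10 CPM (15 were measured, HPRT1 at 0 reads), RPLP0 had an SD of log2 CPM of 0.14, with 10.3% of genes lower, and SDHA, a subunit of mitochondrial complex II, had 0.16. TBP stood at 0.21 and ACTB at 0.27, the median of all genes, where 49.5% of genes were lower. GAPDH stood at 0.58, with 85.5% of genes lower, TFRC, the transferrin receptor, at 0.95 with 95.5% lower and PGK1 at 0.99 with 96.1% lower. GAPDH was 1027 CPM in vehicle 6 and 2728 CPM in vehicle 3. Of the 14, 10 were highest in vehicle 3. SDHA, TBP and TFRC are outside the rule for named genes and were chosen after their values were seen.

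Whole transcriptomes of the 6 libraries were alike in the order of their genes. Over 10589 genes, Spearman's correlation of log2 CPM was highest between vehicles 2-1 and 2-2, at 0.974, and lowest between vehicles 3 and 6, at 0.907, among 15 pairs. These are descriptions over genes of libraries that share the same annotation and counting. On average vehicle 3 correlated least with the other 5, at 0.924, followed by vehicle 6 at 0.934, and vehicle 2-2 most, at 0.955. Restricted to the 500 most variable genes, chosen on these libraries, the pair 2-1 and 2-2 stood at 0.820 and the pair 3 and 6 at 0.212. Vehicles 3 and 6 were also the ends of the range for the milk protein, cell cycle and mast cell lists. No 2 libraries were copies: the pair closest in counts still differed by a chi-square of 20.3 per degree of freedom across genes averaging 20 or more reads.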

How the data were processed

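The deposited table holds whole-number read counts per gene symbol for 15 libraries, made by the authors with the rn6 build per the submitters' processing notes. The aligner's version, the annotation, the strand setting and the treatment of reads that map to several genes were not given in the sources used here. Only the 6 vehicle columns were described, and other columns only to set the level of a gene in another library beside muscle, milk and collagen genes and 2 others. Counts were used as deposited. With edgeR 4.0.16 in R 4.3.3, genes were filtered (10589 kept) and TMM factors computed over the 6 libraries. Spread is the SD of log2 CPM (prior count 2) among genes with a mean of at least 10 CPM. The counting SD is what Poisson sampling of the counts gives. Depth was 4925504 to 7720135 reads. On simulated data for these 6 libraries, 196 of 200 genes with added spread (98.0%) were among the 200 most variable of 9134. The added spread was set larger than the SD of NRGN, 2.84. This run therefore cannot show how well smaller spreads are ranked.

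Named genes are the 20 with most reads, the 20 most and 15 least variable, 4 leading members and the most variable member of each list, and 14 others; planned levels per kilobase were not computed, because no transcript lengths were used here. Some genes that this rule names are not reported here. Further genes are marked in the text as chosen after their values were seen. Members and lists were chosen with earlier results of these data known. One group is described, so no test was made. Of 17463 symbols, 15570 matched current rat symbols and 1545 older ones. Raw CPM, DESeq2 1.42.0 size factors, other minimum levels, other measures of spread and leaving out each library were tried as alternatives.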

Additional observations from a re-analysis of the deposited data

Results flagged for a closer look

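A check asked, for each of 204 named genes and list scores, whether the highest or lowest of the 6 libraries lay far from the others. The gap of that library to the nearest, as a share of the whole range, had to pass Dixon's 95% critical value. Gap and range were taken on the log2 scale, while the levels below are in CPM. The check set 9 apart (4.41%), and chance alone flags about 1 in 20 groups. Vehicle 6 gave 4 of the 9. KRT20 was low there at 1.11 CPM (next lowest 26.3), CITED1 at 267 CPM (next 771) and BLOC1S5, one of the steadiest genes, at 27.4 CPM (next 29.2). FASN was high there at 1993 CPM (next highest 764). The SD of log2 CPM of BLOC1S5 over all 6 libraries, 0.051, was below its counting SD of 0.103.

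Vehicle 3 gave 3: ELF5 was low at 7.29 CPM (next lowest 69.7), and the replication-independent histone genes H3F3B and H1F0 were high at 2362 and 377 CPM (next highest 1603 and 346). PROM1 was low in vehicle 4 at 21.1 CPM (next lowest 114). RPL22L1 was high in vehicle 5 at 134 CPM (next highest 80.1).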

How the results depend on the processing

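Which genes are named as most or least variable depended on the measure. Of the 20 most variable, 9 remained among genes with a mean of at least 50 CPM, 7 by the coefficient of variation of CPM, 10 by edgeR's dispersion and 7 to 18 when 1 library was left out, fewest without vehicle 6 (7) and vehicle 3 (13). Of the 15 most stable, 3 remained with raw CPM, 3 by edgeR's dispersion, 6 with vehicles 2-1 and 2-2 averaged and 2 to 8 without 1 library. Genes with an SD above 1 numbered 838 at a minimum of 1 CPM and 117 at 50 CPM, against 346. With a prior count of 0.5 the B and plasma cell score was -2.83 and the neutrophil score -2.09, against -1.36 and -0.95, since both lists are near 0 reads. Over the 500 most variable genes the highest correlation was 0.820. The other cell type scores moved by less than 1 SD under every alternative run (168 values, beside the 2 above). Over 395 single-gene and other values, 3724 of 3756 alternatives stayed within the same limits, 32 moved and 0 reversed. Levels per kilobase of coding length were intended as another setting and were not run, since no lengths were used here. Shares of reads use no scaling. No paired analysis was possible because only 1 group is described and no test was made. At these depths, B cell and neutrophil genes are limited by counting.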
